A study of Rattus norvegicus with 415 samples.

Results

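The subject is fat with much and fat with little RNA of Ptprc, the gene of the leukocyte surface protein CD45. All 415 adipose samples were ranked by the deposited FPKM (fragments per kilobase of gene, scaled to the sequencing depth of the sample) of the row ENSRNOG00000000655. The name Ptprc for this row comes with the ranking rule and not from the deposited table. The 104 highest samples are called Ptprc-high and the 104 lowest Ptprc-low, and 207 samples lay between them. The samples were thus chosen by a measured value, so the levels of Ptprc are a description, and every other gene was compared between groups that no label distinguishes.

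Every sample came from fat of outbred rats, Rattus norvegicus, at an age of 17 weeks. The labels put all of them in 1 group with no treatment, strain, sex or fat depot named. The series' purpose was to find genes behind adiposity and other metabolic traits by genetic mapping. Both extreme groups share that tissue and age and were formed by the ranking alone. The labels do not say that each sample is a separate animal, so p-values measure the spread between these samples.

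CD45 is a receptor-type tyrosine phosphatase in the membrane of all nucleated cells of blood origin. It removes an inhibitory phosphate from kinases of the Src family, which sets the threshold for signalling by the antigen receptors of T and B cells. Fat holds macrophages and lymphocytes among and between its adipocytes, and lymph nodes lie embedded in several depots, while adipocytes themselves do not carry CD45. In bulk tissue, more leukocytes and more Ptprc RNA per leukocyte cannot be told apart. The table gives Ensembl identifiers without names, and the RefSeq gene table used for names matched 0 of its 18358 identifiers. The label of leukocyte-rich fat therefore could not be checked against any other leukocyte gene, and the groups are named by Ptprc alone.

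The stretch before the start of Ptprc is shown because the samples were ranked by this gene's transcript. It covers the 250 bases upstream of the annotated start in RefSeq's GRCr8 assembly, chr13:52259747-52259996 on the minus strand, printed 5′ to 3′ along the gene. The capitals mark AGGAAG, the core of binding sites of many ETS factors, searched on both strands after the sequence had been seen.
Ptprc promoter: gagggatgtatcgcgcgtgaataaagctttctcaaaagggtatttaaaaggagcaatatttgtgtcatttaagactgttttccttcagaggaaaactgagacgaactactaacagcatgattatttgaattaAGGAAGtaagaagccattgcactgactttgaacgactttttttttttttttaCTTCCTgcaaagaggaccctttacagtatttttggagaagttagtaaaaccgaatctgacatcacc
The first match began 118 bases before the start on the gene's own strand, and the other began 66 bases before it on the opposite strand. Among 33469 RefSeq promoters of the same length, 29.5% held AGGAAG at least once and 5.76% held it 2 or more times. The longer letters GAGGAAGT, a form bound by the leukocyte factor PU.1, stood in 2.04% of promoters and were not in this window. These matches describe letters and say nothing of binding.

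Ptprc was detected in every sample. Its FPKM had a lowest value of 14.3, a median of 29.7 and a highest value of 146 over the 415 samples. In the Ptprc-low group it ran from 14.3 to 26.2 with a median of 24.3 (23.9 ± 1.98, SD, n = 104), and in the Ptprc-high group from 35.0 to 146 with a median of 41.6 (50.3 ± 23.5, SD, n = 104). The Ptprc-low samples were thus close to each other, whereas the Ptprc-high samples spread over a long upper range. The reads behind these values numbered 347 to 774 in the low group and 536 to 3510 in the high group, for a gene length of 5050 bp.

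Neither border followed a gap in the ranking. The 3 samples just inside the low group had 26.19, 26.13 and 26.11 FPKM and the 3 just outside it had 26.20, 26.31 and 26.39. At the upper border the 3 just inside had 34.99, 35.22 and 35.27 FPKM and the 3 just outside had 34.94, 34.85 and 34.84. Counting error alone gave a sample an SD of 1.01 FPKM in the low group and 1.38 in the high group, as group medians. Within 1 such SD of the low border lay 29 samples inside and 31 outside, and of the high border 16 inside and 15 outside. Counting error covers the reads only, not the dissection or the library.

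As a ratio, the widest step between neighbouring samples above the median was the one from 66.3 to 79.2 FPKM. Above it lay 11 samples, with 79.2, 82.4, 94.0, 96.8, 102, 109, 115, 130, 131, 140 and 146 FPKM of Ptprc. These samples, called the upper tail, were set apart after the values had been seen. Their recovered reads, 4032776 to 5301600, lay inside the range of the others. The remaining 93 Ptprc-high samples had a median of 39.9 FPKM, next to 109 in the upper tail.

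**Figure D1:**
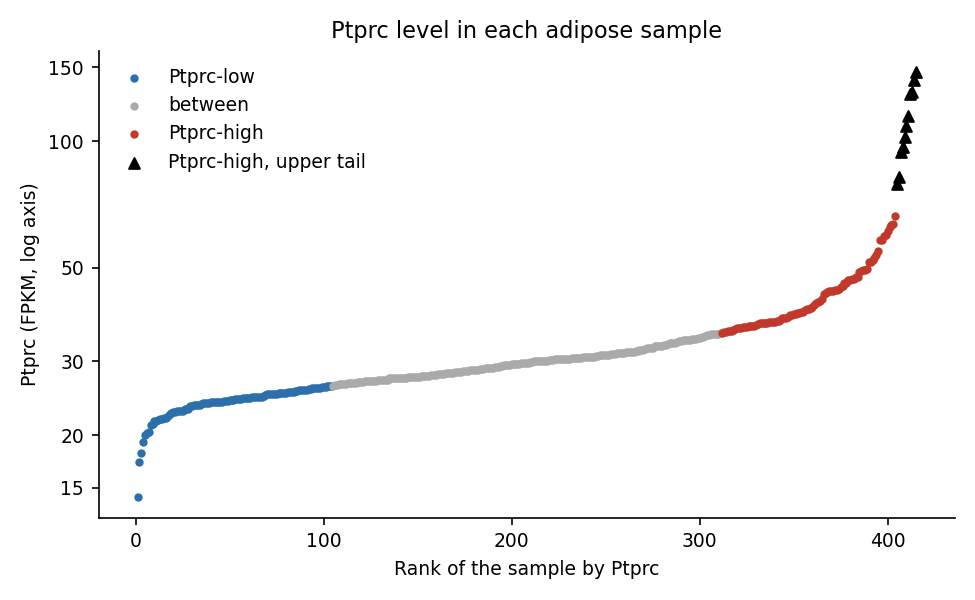
Ptprc in FPKM on a log axis against the rank of the sample, with 1 point per sample for all 415. Colours give the Ptprc-low, between and Ptprc-high samples, and black triangles the 11 samples above the step from 66.3 to 79.2 FPKM, the widest as a ratio above the median.

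The sample titles hold a number and a suffix whose meaning the labels do not give, and gaps above 500 between numbers cut the samples into 3 blocks. Ptprc had a median of 31.9 FPKM in the first block (n = 39), 30.1 in the second (n = 232) and 28.1 in the third (n = 144). Block took up 1.15% of the variance of log2 Ptprc. The Ptprc-high samples made up 30.8%, 27.2% and 20.1% of the blocks and the Ptprc-low samples 17.9%, 23.7% and 29.2%, so block was a covariate in each test across genes. The upper tail had 1, 6 and 4 samples in the blocks. Suffixes 3 and 4 covered 42.3% and 40.4% of the high group, next to 43.3% and 46.2% of the low group. Suffix 5 covered 8.65% of the high and 6.73% of the low group. For suffix 6 these shares were 7.69% and 1.92%, and suffix was not a covariate.

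Differences between the groups ran through a large share of the genes, mostly as small shifts. Of 16130 genes tested on log2(FPKM + 1), 4226 were higher in Ptprc-high fat, 26.2% of those tested, and 4563 were lower, 28.3% (limma, Benjamini-Hochberg adjusted p under 0.05). The median size of the called differences was 0.17 log2 units among the higher genes and 0.13 among the lower ones. The median over all genes tested was -0.01. At the large end the sides were unequal: 574 called genes were higher by more than 0.5 log2 units (1.41-fold), next to 58 called genes lower by more than that. Above 1 log2 unit (2-fold) stood 101 genes, 0.626% of those tested, and below -1 stood 0. Beside that 0, 4563 genes were called lower, and with a pseudocount of 0.1 in place of 1 the difference was below -1 in 18 genes and above 1 in 243. The number of genes past this size depended on the size of the groups and the scale: 378 were above 1 and 21 below -1 with 42 samples a group, 30 and 0 with 138 samples a group, and 248 and 19 by voom on recovered reads.

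Separation of single samples followed the same order. For 307 genes a Ptprc-high sample exceeded a Ptprc-low one in more than 90% of all pairs of samples, with up to 99.7%. Only 2 genes had a share under 10%, so a lower level in nearly all Ptprc-high samples was rare. The standard deviation within groups was larger in Ptprc-high fat for 89.0% of the genes called higher, 79.5% of those called lower and 80.9% of all genes tested.

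The lower calls leaned to abundant genes and the large rises to scarce ones. Genes called lower had a median level of 22.0 FPKM, those called higher 14.9 and all genes tested 15.5. Among the 2023 genes at or above 50 FPKM, 39.4% were lower and 19.9% higher. Among the 1920 genes under 2 FPKM, 18.5% were lower and 23% higher, at fewer reads per gene. The 101 genes that rose by more than 1 log2 unit were 17 of the 1920 genes under 2 FPKM and 45 of the 2260 from 2 to under 5. Another 38 were among the 5173 genes from 5 to under 20 FPKM. Only 1 was among the 4754 genes from 20 to under 50, and 0 among the 2023 above that. FPKM compares levels between genes per length. Adding 1 before taking logs makes the differences of scarce genes smaller than their log ratios.

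**Figure D2:**
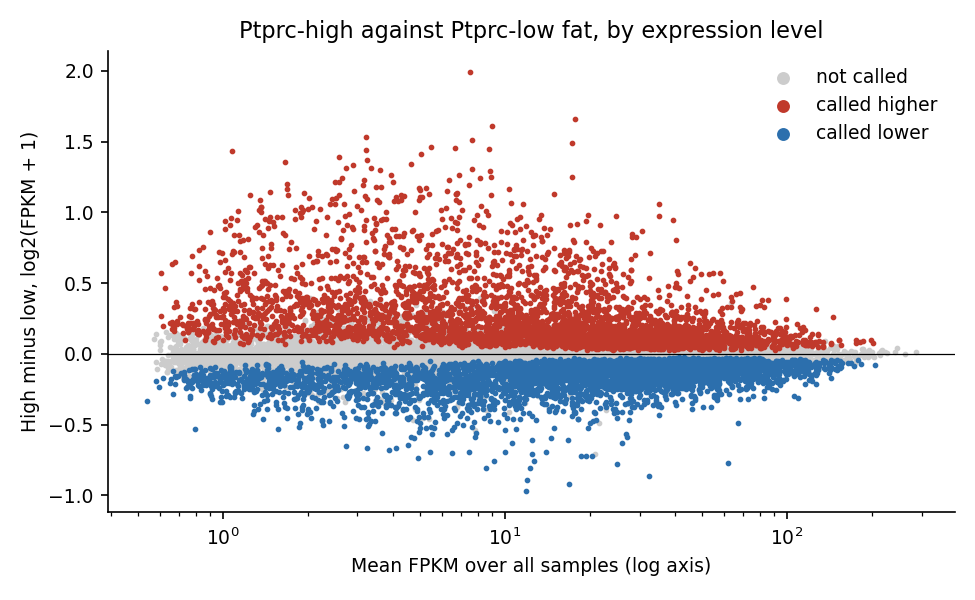
High minus low difference on the log2(FPKM + 1) scale against mean FPKM over all samples on a log axis, 1 point per gene. Red genes were called higher, blue genes lower and grey genes neither; the large red differences sit at low and middle levels, and no gene lies below -1.

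The largest rise among the called genes was that of ENSRNOG00000050000, a gene of 312 bp for which the files give no name. Its level was 0 to 18.1 FPKM (median 1.56) in Ptprc-low samples, 0 to 21.1 (median 2.49) in the samples between, and 0.686 to 167 (median 7.62) in Ptprc-high samples. The groups overlapped, and 96 of the 104 Ptprc-high samples lay above the low group's median. The difference was 1.99 log2 units (SE 0.18, limma adjusted p = 1.62e-21), from a median of 2 reads in the low group and 12 in the high group. In the upper tail the gene had 14.6 to 167 FPKM, and 10 of those 11 samples were among its 11 highest. Without them the difference was 1.61 (adjusted p = 7.07e-22).

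The next largest rise belonged to ENSRNOG00000046683, a gene of 2418 bp and also without a name here. It had 2.79 to 26.4 FPKM (median 8.94) in Ptprc-low fat, 3.70 to 45.4 (median 12.5) between the groups, and 8.81 to 93.9 (median 27.99) in Ptprc-high fat. A Ptprc-high sample exceeded a Ptprc-low one in 96.7% of pairs, and 55 Ptprc-high samples lay above every Ptprc-low sample. The difference was 1.66 log2 units (SE 0.09, limma adjusted p = 1.97e-41). It did not rest on the upper tail: those 11 samples had a median of 24.6 FPKM, below the 29.7 of the remaining Ptprc-high samples, and without them the difference was 1.65.

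The largest falls were of another form. ENSRNOG00000048139 (507 bp) had 0 to 54.9 FPKM with a median of 3.26 in Ptprc-low samples and 0 to 63.1 with a median of 1.53 in Ptprc-high samples, so the ranges coincided. It was above 10 FPKM in 39 of the 104 Ptprc-low, 82 of the 207 intermediate and 16 of the 104 Ptprc-high samples. Its difference was -0.97 log2 units (SE 0.23, limma adjusted p = 1.42e-04). The median was 8 reads in the low group and 3 in the high group.

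ENSRNOG00000014656 (319 bp) had 0 to 146 FPKM with a median of 6.36 in Ptprc-low samples and 0 to 139 with a median of 1.94 in Ptprc-high samples. It exceeded 10 FPKM in 43 Ptprc-low, 65 intermediate and 20 Ptprc-high samples. The difference was -0.92 log2 units (SE 0.28, limma adjusted p = 0.00265), from a median of 9.5 reads in the low group and 3 in the high group. In both genes fewer Ptprc-high than Ptprc-low samples were above 10 FPKM, while the highest levels of the groups were similar. Among Ptprc-high samples, 1 exceeded every Ptprc-low sample in ENSRNOG00000048139 and 0 did in ENSRNOG00000014656. In the first block, with 12 Ptprc-high and 7 Ptprc-low samples, both differences had the other sign, 0.77 for ENSRNOG00000048139 and 1.02 for ENSRNOG00000014656, with adjusted p of 0.678 and 0.593. Between Ptprc-high and Ptprc-low samples of the same title number the differences were -1.03 and 0.16, with limma adjusted p of 0.292 and 0.932.

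A pair of genes with separate high and low levels across the series did not pass the test between the Ptprc groups. ENSRNOG00000012067 had a median of 57.5 FPKM in Ptprc-low and 52.5 in Ptprc-high fat (difference -0.11, SE 0.25, limma adjusted p = 0.745), and ENSRNOG00000002468 one of 0.160 and 0.194 (difference 0.32, SE 0.18, adjusted p = 0.131).

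The 101 genes above 1 log2 unit were described further by how they varied over all samples. Joining genes by average linkage on 1 - r and stopping at 0.5 gave a set 1 of 76 genes, a set 2 of 20 genes and 5 genes outside both. These sets were made from the same values after they had been seen, so what follows is a description with no test. Median r between genes was 0.75 within set 1 and 0.70 within set 2. Without the upper tail it was 0.61 and 0.70.

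The sets parted at the upper tail. For each gene, the difference in mean log2(FPKM + 1) between the 11 upper-tail samples and all others was turned into a fold. In set 1 the median fold was 8.26, and for 37 of the 76 genes every upper-tail sample lay above every other sample. In set 2 the median fold was 1.39, and 0 of 20 genes showed that separation. Over all genes tested the median fold was 0.992 and 143 genes showed that separation.

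As a mean of log2(FPKM + 1) over its genes, set 1 ran from 1.12 to 1.98 in Ptprc-low samples, from 1.31 to 2.38 in the samples between, from 1.64 to 3.82 in the 93 other Ptprc-high samples and from 4.10 to 5.35 in the upper tail. The upper tail thus held the 11 highest samples in set 1 with a gap below them, the sample with the highest Ptprc also having the highest set 1 level. Outside the upper tail, 84 of the 93 Ptprc-high samples also exceeded every Ptprc-low sample.

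Set 2 ran from 1.55 to 2.88 in Ptprc-low samples (median 2.05), from 1.84 to 4.001 between (median 2.35), and from 2.10 to 4.63 in the 93 other Ptprc-high samples (median 3.15), of which 65 exceeded every Ptprc-low sample. In the upper tail it ran from 2.57 to 5.07 with a median of 2.74. There, 8 of the 11 samples lay between 2.57 and 2.87, below the median of the other Ptprc-high samples. The upper-tail samples with 79.2 and 82.4 FPKM of Ptprc had set 2 levels of 4.99 and 5.07, the highest of all 415 samples, and the one with 96.8 FPKM had 3.74, which ranked 29. The remaining 8 were very high for set 1 with set 2 inside the range of the intermediate samples.

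**Figure D3:**
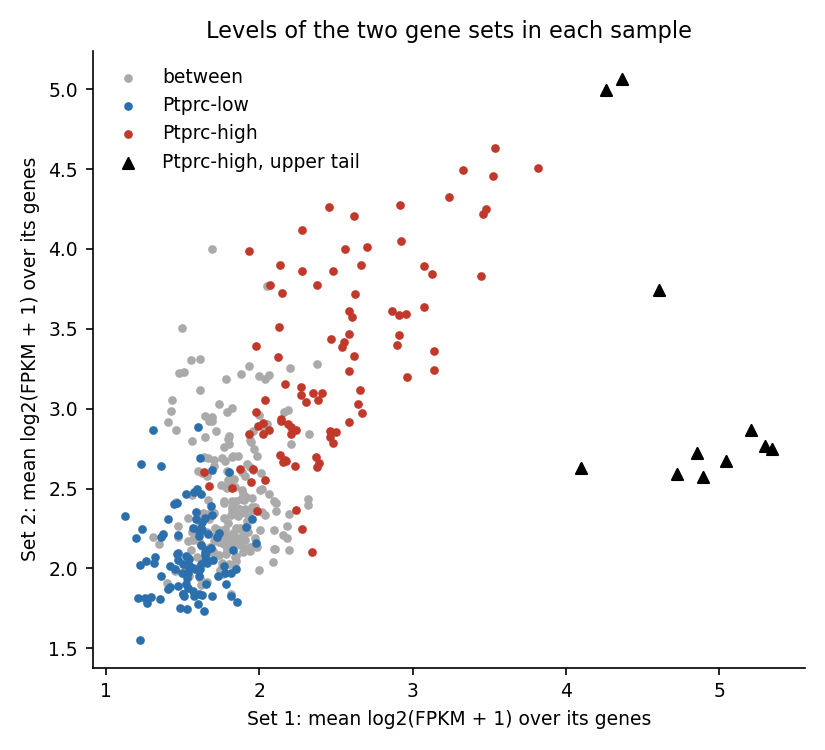
Mean log2(FPKM + 1) over the 76 genes of set 1 against that over the 20 genes of set 2, with 1 point per sample. Most samples lie on a common rising band, while 8 of the 11 upper-tail samples (triangles) lie at the right with set 2 levels from 2.57 to 2.87.

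Leaving out the upper tail, an alternative added after the values had been seen, kept most calls and shrank many rises. It gave 3938 genes higher (24.4%) and 4502 lower (27.9%), of which 3664 and 3992 were also called with all samples. All 101 genes stayed called, but 39 of them remained above 1 log2 unit, 18 from set 1, 19 from set 2 and 2 from outside both. The median difference went from 1.13 to 0.91 in set 1 and from 1.13 to 1.14 in set 2. Of the 574 genes above 0.5, 459 remained above it. Of the 60 genes below -0.5, called or not, 52 remained below it. All these genes were chosen by their size with the upper tail included, so shrinkage without it is partly built in.

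**Figure D4:**
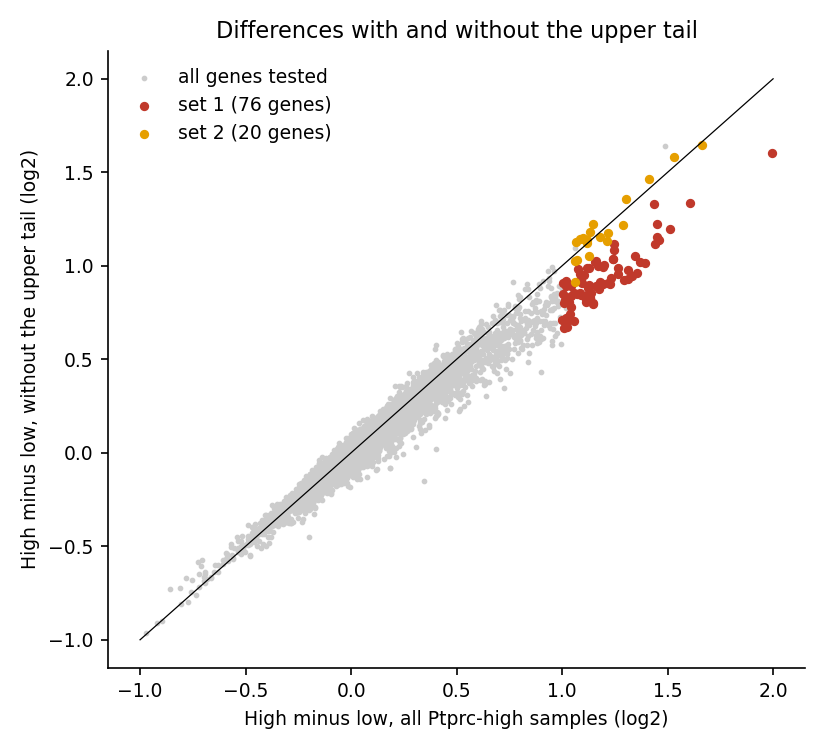
High minus low difference without the 11 upper-tail samples against that with all Ptprc-high samples, in log2 units, 1 point per gene, with the line of equality. Genes of set 1 (red) lie below the line, with a median of 0.91 instead of 1.13, and genes of set 2 (orange) lie near it.

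Over 10 equal steps of the Ptprc ranking the sets also differed in shape. Each gene was taken relative to its mean over all samples, and the median over the genes is given. Set 1 went from -0.50 in the lowest step through -0.19 in the fifth to 0.37 in the ninth and 1.40 in the tenth. Set 2 went from -0.56 through -0.14 to 0.53 and 0.99. Most of the span of set 1 fell in the last step, which holds the upper tail, and set 2 was spread over the upper 3 steps. The 58 genes called lower by more than 0.5 had no steady slope. Their median was 0.28 in the lowest step, -0.05 in the third, 0.31 in the sixth, -0.41 in the ninth and -0.65 in the tenth.

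The samples between the extreme groups gave a reading of the same relation in samples that the comparison of the groups had not used. There Ptprc ran only from 26.2 to 34.9 FPKM with an SD of 2.38, of which counting error made up an SD of 1.12. A limma slope of each gene on log2(FPKM + 1) of Ptprc, with block as covariate, rose in 1202 genes (7.45%) and fell in 854 (5.29%). Of the rising genes, 1137 were also higher in Ptprc-high fat, which is 94.6% of the rising genes and 26.9% of the higher ones. Of the falling genes, 796 were also lower, 93.2% of the falling and 17.4% of the lower genes. No gene was called in opposite directions. Both sets of samples were scaled together and the values of the ranked gene are shared, so genes are not independent replicates.

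The sign of the slope followed the groups' difference in 90.1% of the genes called higher and 87.0% of those called lower, next to 61.0% of the genes not called. Among the 101 largest rises, 76 rose in the middle samples and 0 fell. In set 1, 56 of 76 genes rose, with a median slope of 0.88 per log2 unit of Ptprc, and in set 2, 18 of 20 rose, with a median of 1.47. The median over all genes was -0.01.

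Few of the large falls were called in these samples. Of the 58 genes called lower by more than 0.5, 3 fell and 0 rose by the test, and their median slope was 0.19, of the other sign. ENSRNOG00000048139 had a slope of 0.75 (SE 1.25, adjusted p = 0.75) and ENSRNOG00000014656 one of -0.32 (SE 1.25, adjusted p = 0.901). The rises of ENSRNOG00000050000 (slope 1.85, SE 0.58, adjusted p = 0.0199) and ENSRNOG00000046683 (slope 2.32, SE 0.34, adjusted p = 2.06e-08) passed the test. Whether the slopes of the falling genes differ from those of the rising genes was not tested.

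**Figure D5:**
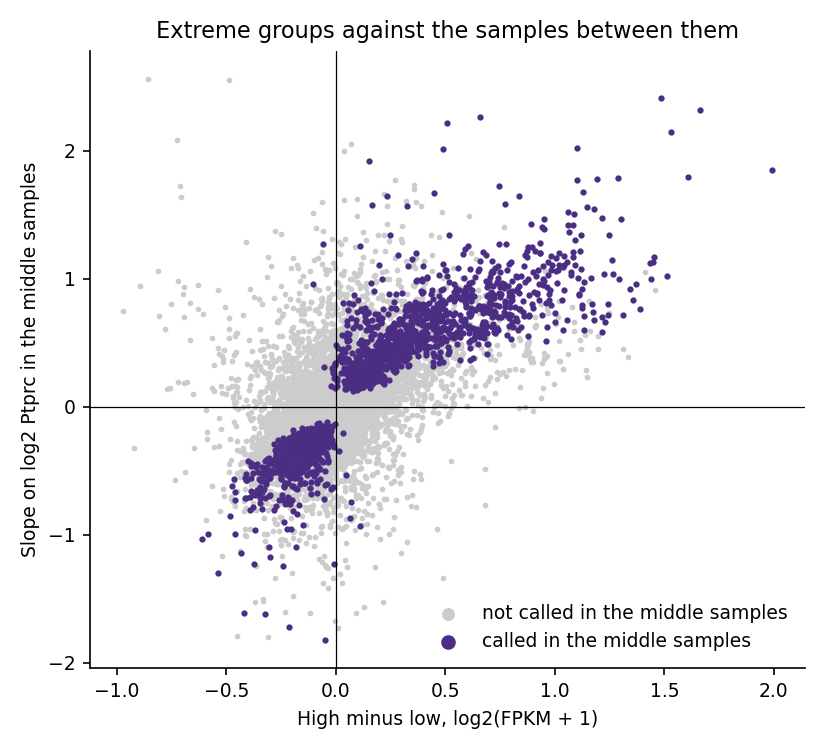
Slope of each gene on log2 Ptprc in the 207 samples between the groups against the high minus low difference, 1 point per gene. Genes called in the middle samples (purple) lie mostly at upper right and lower left, and the genes with differences below -0.5 are mostly grey on both sides of a slope of 0.

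Within blocks the numbers of calls went with the numbers of samples. In the first block (12 high, 7 low) 217 genes were higher (1.35%) and 74 lower (0.459%). In the second (63 high, 55 low) 3827 were higher (23.7%) and 3858 lower (23.9%), and in the third (29 high, 42 low) 2499 were higher (15.5%) and 2529 lower (15.7%). Of the genes called higher over all blocks, 93.7%, 99.8% and 91.8% were higher within each block, whether called or not. Of those called lower, 86.5%, 99.8% and 94.7% were lower. The 101 largest rises had medians of 0.996, 1.10 and 1.28. The samples of each block also entered the calls over all blocks, so these shares and medians are partly built in. The limma interaction of group with block called 0 genes (0%), with a lowest adjusted p of 0.162 and 2549 genes (15.8%) at an unadjusted p under 0.05.

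Depth differed a little between the groups, unevenly over the blocks. Recovered reads per sample ran from 2139163 to 5764786 with a median of 4548261 in Ptprc-high fat, and from 3599360 to 6017044 with a median of 4569742 in Ptprc-low fat. Mean log2 reads were 22.06 in the high and 22.12 in the low group, a high minus low difference of -0.07 (2-sided permutation p = 0.0241). Within blocks the difference was 0.01, -0.09 and -0.02, with permutation p adjusted over the blocks of 0.92, 0.115 and 0.92, so no block passed the test alone. Of the 12 samples under 3500000 reads, 11 were Ptprc-high, 1 was between and 0 were Ptprc-low, and none was in the upper tail. This cutoff was set after the data had been seen and lies below the shallowest Ptprc-low library (3599360 reads). From the extreme groups it could take Ptprc-high samples only, so a smaller gap in depth without them is built in. Without the shallow samples the groups differed by 0.01 log2 reads (permutation p = 0.687). In that fit 3843 genes were higher and 4587 lower, 3491 and 3783 of them also called with all samples. The 101 largest rises then had a median of 1.18 in place of 1.13, and 119 genes were above 1.

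With log2 reads as a further covariate, 4151 genes were higher and 4692 lower, 3937 and 4190 of them shared with the fit without it. Without both the shallow samples and the upper tail, 3239 were higher and 4127 lower, and 47 genes were above 1. Several shallow Ptprc-high libraries had the lowest title numbers of the second block, a run that the 3 blocks do not set apart. Among them were 60213 (2235919 reads), 60214 (2523551 and 2538904) and 60444 (2139163 and 3201606). Number 60444 also held a Ptprc-low sample of 4139407 reads. With blocks cut at gaps above 250, 3994 genes were higher and 4490 lower. The part of depth in the results was not tested beyond these values.

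Pairs of samples with the same title number numbered 105, over 186 samples. Resemblance, the mean product of the pair's deviations divided by the mean square of its members, was 0.08 for Ptprc on the log2(FPKM + 1) scale and 0.165 by ranks. These are the values that chose the groups, so they are given with no test. Of the pairs, 5 were both Ptprc-high, 9 were both Ptprc-low, 12 had 1 of each and 34 lay wholly between. Upper-tail samples were in 5 pairs, and in 0 of them was the partner also in the upper tail. A comparison within title numbers, added after the data had been seen, used the 12 Ptprc-high and 11 Ptprc-low samples of the 11 numbers that held both. With the number as block, limma called 1100 genes higher and 627 lower, 1058 and 599 of them also called over all samples. Of the genes called higher over all samples, 94.7% were higher here, of those called lower 89.9% were lower, and the 101 largest rises had a median of 1.28. The samples of these 11 numbers also entered the calls over all samples, so this agreement is partly built in. The meaning of the title number is not given in the labels. Over genes, median resemblance was 0.03 for the 101 largest rises, 0.21 for all genes called higher, 0.28 for those called lower and 0.23 for all genes tested. These medians are a description with no test. The 101 genes were chosen for following Ptprc, whose own resemblance was 0.08, so a low value is partly built in for them.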

How the data were processed

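RNA was measured by 75 bp single-end sequencing, per the labels' protocols. The submitters' processing notes name STAR, Picard, featureCounts and DESeq2, without versions or roles, and the genome build is not given in the sources used here. The deposited values are FPKM scaled by the authors, a unit worked out from the values: each was a whole number of reads times a step per gene and sample. Whole reads were recovered for 100% of values within a tolerance of 0.001, giving 2139163 to 6248214 reads per sample (median 4602134). FPKM was not scaled by plain totals, so a shift in overall composition can move all genes of a sample.

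Genes above 1 FPKM in at least 20% of samples were kept (16130 besides Ptprc). Groups, middle samples and interactions were tested with limma 3.58.1 in R 4.3.3 on log2(FPKM + 1), with Benjamini-Hochberg adjustment over these genes. Permutation tests used 100000 resamples, in Python 3.11.15, numpy 2.4.6, scipy 1.17.1 and pandas 2.3.3. Figures used matplotlib 3.10.9. The fits and the recovery of reads were tested on simulated data. The ranked gene, the lists and the tests were chosen with earlier results of these data known. Named genes are the 2 largest rises and the 2 largest falls among called genes, limited so because identifiers carry no names here, plus a pair of genes known to have separate levels across the series. Planned descriptions of leukocyte and adipocyte gene lists, correlations of marker genes, the 10 genes most like Ptprc by Spearman correlation, motif shares by gene group and a ranking by other leukocyte genes need names and were not run.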

Additional observations from a re-analysis of the deposited data

How the results depend on the processing

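Pseudocount, filter, covariates, larger or smaller groups from the ranking, ranking within blocks, 1 sample per title number, quantile normalization (3734 higher, 5617 lower), voom on recovered reads (4498 higher, 3982 lower), and leaving out the upper tail, the lowest sample, the shallow samples, or the shallow samples and the upper tail moved the 4226 higher and 4563 lower calls by less than 1.5 times. The last 4 were added after the data had been seen. Calls fell to 217 and 74 within block 1 and to 2499 and 2529 within block 3, where fewer samples entered, and to 1100 and 627 with the title number as replicate block (12 high and 11 low samples, added later). Slopes over all samples gave 5189 rising and 5310 falling genes, from more samples. Resemblance of Ptprc by ranks, added later, was 0.165, and the cause was not tested. Within block 1, ENSRNOG00000048139 gave 0.77, ENSRNOG00000014656 gave 1.02, and ENSRNOG00000050000 gave 1.64 with a limma adjusted p of 0.172. With the title number as block, ENSRNOG00000014656 gave 0.16 and ENSRNOG00000048139 gave -1.03, not called. The other 77 values of the 4 named genes kept direction and call, and the 2 falls gave none under the filter at 80% of samples. Ranking by other leukocyte genes was not run, for want of names. Counts of genes above 1 log2 unit moved most, from 30 to 378. Depth limits scarce genes most.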
